A study of Drosophila melanogaster with 6 samples.

Results

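Of the 17559 genes counted in these wing discs, 6 are described here: *Ilp8*, *Ilp6*, *ImpL2*, *Sdr*, *InR* and *foxo*, genes of insulin and relaxin-like peptide signaling that were matched by symbol to their FBgn identifiers. Wing discs, the larval precursors of the adult wings and notum, were dissected from wandering *Drosophila melanogaster* larvae of the third instar, and each of the 6 libraries holds polyadenylated RNA from 40 pooled discs, homogenized as sets of 20. All larvae carried UAS-P35, a baculovirus caspase inhibitor that blocks the end of apoptosis, together with ap-Gal4, UAS-GFP and tub-Gal80TS. The groups differed only in the UAS transgene, which was *Nup98* RNAi (HM05048, 3 libraries) or, as control, *white* RNAi (JF01540, 3 libraries). Larvae were kept at 18°C for 4 days, when Gal80TS holds Gal4 inactive, and then at 28°C for 72 h, so that the RNAi was driven. *ap*-Gal4 drives in the dorsal compartment only, so every library also holds ventral cells without RNAi or P35. Each group rests on 1 RNAi line, and the discs of a library are pooled, so that p-values measure the spread between pools.

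Insulin-like peptides of the fly bind the receptor InR, which through PI3-kinase and Akt1 holds the transcription factor Foxo in the cytoplasm and activates the TOR kinase, and so couples nutrition to growth. The secreted proteins ImpL2 and Sdr bind these peptides and keep them from the receptor. Ilp8 is a relaxin-like member of the same peptide family that damaged or overgrown discs release, and that acts on the receptor Lgr3 in the brain to delay metamorphosis. *Nup98-96* encodes a precursor of the nuclear pore proteins Nup98 and Nup96.

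Library totals ran from 70342787 to 110330112 counted reads. Levels are given as counts per 1000000 reads of TMM-scaled library size (CPM). A log2 change is the log2 fold change of knockdown over control with its standard error (SE). Genes count as called where edgeR's quasi-likelihood test gave an adjusted p under 0.05 and the log2 change was 0.5 or more in either direction. RNA of the targeted gene *Nup98-96* was at 331, 335 and 316 CPM in the libraries labelled *white* RNAi and at 317, 302 and 314 CPM in those labelled *Nup98* RNAi, and was not called (log2 change -0.07 ± 0.04 SE, adjusted p = 0.118). The control target *w* was at 485, 573 and 573 CPM with the *white* RNAi label. With the *Nup98* RNAi label it was at 1064, 1071 and 861 CPM and was called higher (log2 change 0.88, adjusted p = 0.000326 by edgeR's quasi-likelihood test). Reads of a hairpin cannot be told apart from reads of its target in these counts, and the directions below compare libraries by their labels. The summed level of 8 fat body markers, at 3716 CPM in control replicate 1, lay between 37.6 and 111 CPM in the other 5 libraries, and 1 of the 8 (*Fbp1*) was called lower. Wing disc markers were present in every library (summed level of 8 genes 2085 to 2213 CPM in control and 1649 to 1657 CPM in knockdown libraries), and 5 of the 8 (*vg*, *nub*, *Dll*, *Bx*, *pdm2*) were called lower. Among all 7942 genes tested, 11.2% were called lower.

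All 6 genes were called, 2 higher and 4 lower in the knockdown. *Ilp8* and *ImpL2* rose, and *Ilp6*, *Sdr*, *InR* and *foxo* fell. Over all 7942 genes tested, 26.6% were called, 15.3% higher and 11.2% lower, and the median log2 fold change was 0.0014. The control and knockdown values of each of the 6 genes did not overlap, which was also so for 72.8% of all genes tested. As the discs were measured in bulk, fewer cells of a type and less RNA per cell cannot be told apart.

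**Figure D1:**
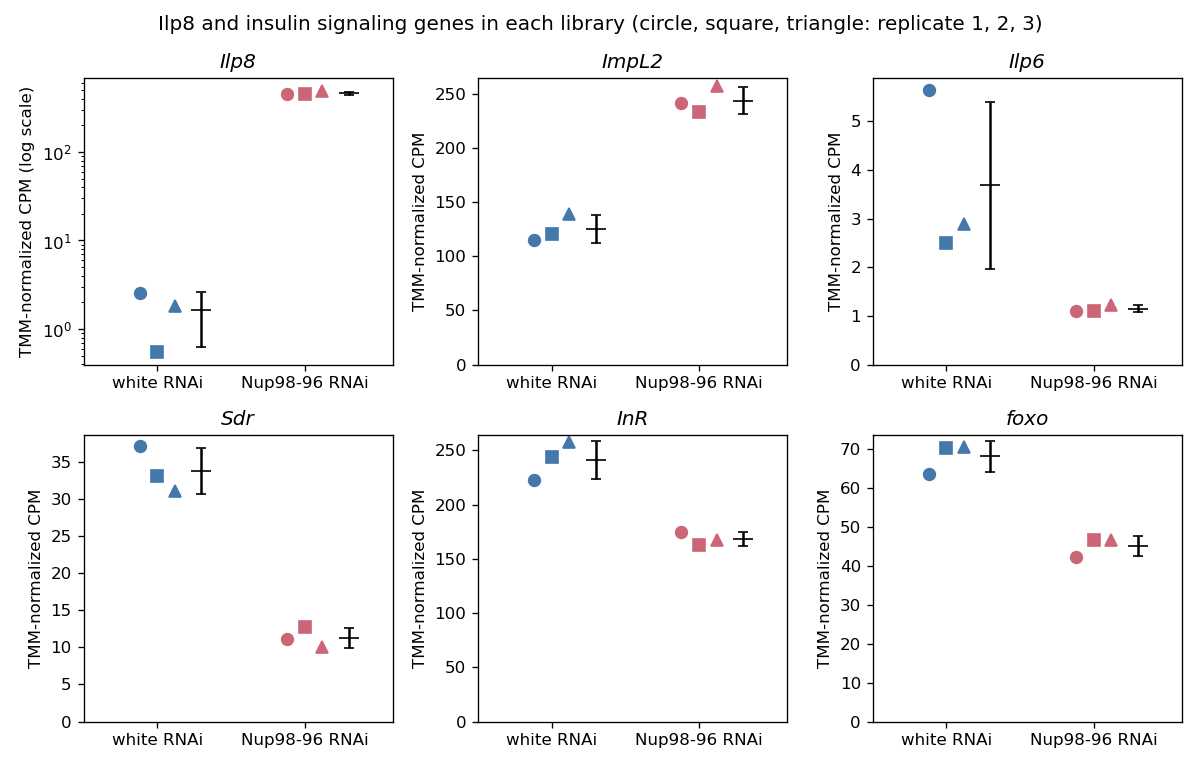
TMM-normalized CPM of the 6 genes in each of the 6 libraries, with circles, squares and triangles for replicates 1, 2 and 3 and a bar for the mean ± SD (n = 3); the *Ilp8* axis is logarithmic and the others start at 0. *Ilp8* lies between 0.557 and 2.53 CPM in control and between 448 and 483 CPM in knockdown libraries, and no gene has overlapping groups.

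*Ilp8* (FBgn0036690) lies on chromosome 3L (genome build BDGP6, as for all positions here) from 17029812 to 17032080 on the minus strand, with 867 bases of exon. It was counted 241, 54 and 191 times in the 3 control libraries, or 2.53, 0.557 and 1.80 CPM. In the knockdown libraries it was counted 31938, 45268 and 42083 times, or 451, 448 and 483 CPM. The control libraries held little *Ilp8* RNA and differed among themselves by more than counting error, as the exact Poisson interval (95%, counting error only) of the lowest count, 40.6 to 70.5, excludes the other counts. The knockdown libraries were close to each other, with a coefficient of variation of 4.20% against 61.3% in control. The lowest knockdown library was 177-fold above the highest control library. Means were 1.63 ± 0.999 and 460 ± 19.3 CPM (SD, 3 libraries each), a log2 change of 8.14 ± 0.48 SE (adjusted p = 1.46e-05 by edgeR's quasi-likelihood test) or 282-fold. This was rank 7 among the 7942 genes ordered from the highest log2 fold change. Leaving out each library in turn gave log2 fold changes from 7.72 to 8.58. *Ilp8* reads made up 0.0452 to 0.0485% of all counted reads in the knockdown libraries.

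Counting was done without strand, and *Ilp8* shares exon bases with other genes. *CG7730*, on the opposite strand, shares 3 exon bases with *Ilp8*. It was at 6.82, 6.27 and 5.35 CPM in control and at 11.7, 11.7 and 11.3 CPM in knockdown libraries (log2 change 0.91), and was called higher. The noncoding *lncRNA:CR45756*, on the same strand, shares 26 bases and was at 0.147, 0.0413 and 0 CPM in control and at 1.75, 1.56 and 1.77 CPM in knockdown libraries. Levels of both neighbours were thus far under those of *Ilp8* in the knockdown, and how reads in the shared bases were assigned was not tested.

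The other 6 insulin-like peptides that could be matched were at or near no counts. *Ilp1* and *Ilp3* had 0 counts in all 6 libraries, where a count of 0 allows up to 3 counts, or 0.0283 to 0.0424 CPM by library. *Ilp2*, *Ilp4* and *Ilp5* had 2 counts each in knockdown replicate 3, and *Ilp7* had 2 counts in control replicate 3, with 0 in every other library. *Ilp2*, *Ilp3* and *Ilp5* are the peptides of the insulin-producing cells of the brain. Of the 8 peptide genes, 2 passed the filter on low counts, *Ilp8* through 1 control and 3 knockdown libraries and *Ilp6* through its 3 control libraries alone, so that the filter kept *Ilp6* through the group in which it was high. Both were also called with no filter on low counts, in the same directions, in a fit in which 21.1% of 15021 genes were called, 13.0% higher and 8.12% lower.

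*Ilp6* encodes an insulin-like peptide known mainly from the fat body, where it sustains growth while larvae do not feed. The gene (FBgn0044047) lies on chromosome X from 2331493 to 2334658 on the minus strand, within the span of *Raf* on the other strand, with which it shares 0 exon bases. *Ilp6* was at 5.66, 2.51 and 2.88 CPM in control and at 1.10, 1.11 and 1.23 CPM in knockdown libraries. Control replicate 1 was the highest, and the 3 knockdown libraries were nearly equal. Means were 3.68 ± 1.72 and 1.15 ± 0.0709 CPM (log2 change -1.68 ± 0.34 SE, adjusted p = 0.00402 by edgeR). Control replicate 1 is also the library whose fat body markers summed to 3716 CPM. Without it, *Ilp6* was still called lower, with a log2 fold change of -1.23 (adjusted p = 0.000962). *Raf*, at 65.1 ± 1.19 and 66.8 ± 2.76 CPM, was not called.

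Among the secreted binding proteins, *ImpL2* rose and *Sdr* fell. *ImpL2* (FBgn0001257), an immunoglobulin-domain protein that sequesters insulin-like peptides, lies on chromosome 3L from 4224006 to 4236147 on the minus strand. It was at 115, 121 and 139 CPM in control and at 241, 233 and 257 CPM in knockdown libraries. The lowest knockdown library was 1.67-fold above the highest control library. The mean rose from 125 ± 12.7 to 243 ± 12.3 CPM, a log2 change of 0.96 ± 0.08 SE (adjusted p = 5.91e-05), and leaving out each library gave 0.90 to 1.04. A newer annotation places *CG46460* over 1651 exon bases of *ImpL2*. *CG46460* has no row of its own among the genes counted.

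*Sdr* (FBgn0038279), the secreted decoy of InR, resembles the outer part of the receptor and lies on chromosome 3R from 14918628 to 14923083 on the plus strand. It was at 37.2, 33.1 and 31.0 CPM in control and at 11.1, 12.7 and 9.98 CPM in knockdown libraries. The lowest control library was 2.44-fold above the highest knockdown library. The mean fell from 33.7 ± 3.15 to 11.3 ± 1.38 CPM, a log2 change of -1.58 ± 0.11 SE (adjusted p = 2.49e-05). The ratio of *ImpL2* to *Sdr* RNA per kb of exon was 4.73, 5.59 and 6.86 in control and 33.2, 27.9 and 39.3 in knockdown libraries. *conv*, which encodes a protein known to form a complex with ImpL2 and Ilp2, was at 135, 143 and 141 CPM in control and at 171, 170 and 162 CPM in knockdown libraries. Its log2 change of 0.26 ± 0.04 SE (adjusted p = 0.000886) was under the minimum, and it was not called.

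*InR* (FBgn0013984), the insulin receptor, lies on chromosome 3R from 21570248 to 21619321 on the minus strand. It was at 222, 244 and 257 CPM in control and at 175, 163 and 167 CPM in knockdown libraries. The lowest control library was 1.27-fold above the highest knockdown library. The mean fell from 241 ± 17.7 to 168 ± 6.24 CPM, a log2 change of -0.52 ± 0.06 SE (adjusted p = 0.000306), close to the minimum of 0.5. *InR* was not called with upper-quartile scaling (-0.48), with library sizes alone (-0.49), without control replicate 3 (-0.47) or without knockdown replicate 2 (-0.47). The glmTreat test that the change exceeds 0.5 gave an adjusted p of 0.639, so that a fall beyond the minimum was not shown. *lncRNA:Irar* (7 to 16 counts per library) and *lncRNA:CR44034* (4 to 34 counts) lie within its span and share 0 exon bases with it.

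*foxo* (FBgn0038197) lies on chromosome 3R from 14056945 to 14087978 on the plus strand and encodes the transcription factor that insulin signaling restrains. It was at 63.5, 70.1 and 70.4 CPM in control and at 42.2, 46.5 and 46.5 CPM in knockdown libraries. The lowest control library was 1.37-fold above the highest knockdown library. The mean fell from 68.0 ± 3.89 to 45.1 ± 2.50 CPM, a log2 change of -0.59 ± 0.06 SE (adjusted p = 0.000162). By the glmTreat test against 0.5 its adjusted p was 0.119.

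In the distance between profiles, the root mean square difference over the 6 libraries of log2(CPM + 0.5) after subtracting the control mean, *InR* and *foxo* were the closest pair of the 6 genes, at 0.0943. *Ilp6* and *Sdr* were the next, at 0.345. The ratio of *InR* to *foxo* RNA per kb was 1.27, 1.26 and 1.33 in control and 1.51, 1.27 and 1.31 in knockdown libraries, with means of 1.29 ± 0.0350 and 1.36 ± 0.128.

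Compared per kb of exon, the 6 genes spanned a wide range of levels. In control libraries the order was *ImpL2* (46.9 ± 4.75 CPM per kb), *InR* (21.2 ± 1.55), *foxo* (16.5 ± 0.941), *Sdr* (8.28 ± 0.772), *Ilp8* (1.88 ± 1.15) and *Ilp6* (1.53 ± 0.713). The ranges of *Ilp8* and *Ilp6* overlapped, so that these neighbours did not differ beyond their spread, and no other neighbours overlapped. In knockdown libraries the order was *Ilp8* (531 ± 22.3 CPM per kb), *ImpL2* (91.3 ± 4.61), *InR* (14.8 ± 0.549), *foxo* (10.9 ± 0.605), *Sdr* (2.76 ± 0.339) and *Ilp6* (0.475 ± 0.0294), and no neighbours overlapped. *Ilp8* thus went from the fifth to the first place, while the order of the other 5 genes was the same. Among 7826 tested genes with an exon length, *Ilp8* moved from percentile 10.4 of the control levels to percentile 98.5 of the knockdown levels. *ImpL2* moved from percentile 79.6 to 91.1, and *Sdr* from 28.3 to 12.7.

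**Figure D2:**
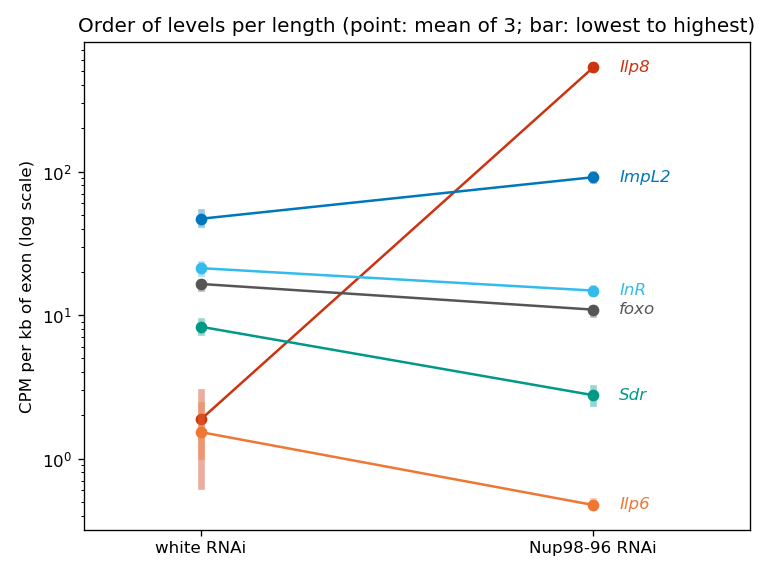
Level of each of the 6 genes in CPM per kb of exon, on a logarithmic axis, with points for the mean of 3 libraries and bars from the lowest to the highest library in each group. In knockdown libraries *Ilp8* is highest at 531 ± 22.3 CPM per kb (SD, n = 3) and *Ilp6* lowest at 0.475 ± 0.0294, and *Ilp8* and *Ilp6* overlap only in control libraries.

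Of the other receptors, *Lgr3*, the neuronal receptor of Ilp8, was low in all discs. It was at 1.01, 0.743 and 0.669 CPM in control and at 1.12, 1.20 and 1.19 CPM in knockdown libraries, and did not pass the filter. With no filter on low counts it was not called (log2 change 0.51, adjusted p = 0.148). The related receptor *Lgr4* was at 0.231, 0.0413 and 0.264 CPM in control and at 0.480, 0.138 and 0.379 CPM in knockdown libraries, and its groups overlapped. *Lgr3* shares exon bases with 2 genes on the opposite strand, 143 with *CG4730* and 893 with *lncRNA:CR45225*, which had 0 counts in every library. *Lgr4* shares 868 with *CG12096* on the opposite strand, and reads of the 2 strands cannot be told apart there.

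Downstream of the receptor, 16 genes of insulin signal transduction were tested. Of these, 3 were called higher, 1 lower (*foxo*), and 12 were not called, with a median log2 fold change of -0.04. Over all genes tested, 15.3% were called higher and 11.2% lower. *trbl*, which encodes a pseudokinase that binds and inhibits Akt1, was at 86.1, 87.5 and 83.6 CPM in control and at 268, 273 and 269 CPM in knockdown libraries (log2 change 1.66 ± 0.03 SE, adjusted p = 2.61e-07). *melt*, whose protein binds Tsc1 and Foxo at the membrane, was at 150, 146 and 155 CPM in control and at 305, 301 and 307 CPM in knockdown libraries (log2 change 1.02). It shares 84 exon bases with *corn* on the other strand. *Ptp61F*, a tyrosine phosphatase, was at 202, 204 and 216 CPM in control and at 373, 348 and 356 CPM in knockdown libraries (log2 change 0.79). The control and knockdown values of these 3 genes did not overlap, as for 72.8% of all genes tested. The core of the pathway, from the InR substrate to the kinases, was among the genes not called, in part by the minimum fold change alone. *chico*, the InR substrate, had a log2 fold change of 0.21 (adjusted p = 0.00118 by edgeR's test) and *Akt1* of 0.03 (adjusted p = 0.556). With no minimum fold change, 6 of the 16 genes were higher and 7 lower, and 2641 and 2585 of all 7942 genes were.

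In the TOR pathway 25 genes were tested, and 5 were called higher, 3 lower and 17 not called, with a median log2 fold change of -0.02. The shares over all genes tested were 15.3% higher and 11.2% lower. *Thor* encodes the translation inhibitor 4E-BP, which TOR restrains, and was at 15.8, 5.46 and 3.84 CPM in control and at 40.6, 38.5 and 33.1 CPM in knockdown libraries (log2 change 2.16 ± 0.49 SE, adjusted p = 0.00717). Control replicate 1 was the highest of the control libraries. Without it the fold change was 8.07 in place of 4.48 (log2 change 3.01). *REPTOR*, a transcription factor that TORC1 holds in the cytoplasm, was at 42.3, 30.9 and 27.9 CPM in control and at 93.2, 98.2 and 105 CPM in knockdown libraries (log2 change 1.55, and 1.75 without control replicate 1). The same library held fat body markers at 3716 CPM. It was also the highest control library for *Ilp8* (2.53 CPM) and *Sdr* (37.2 CPM), and the lowest for *ImpL2*, *InR* and *foxo*. Without it the log2 changes of *Ilp8* and *Sdr* were 8.58 and -1.51. The part of fat body RNA in the control values of *Ilp6*, *Ilp8*, *Sdr*, *Thor* and *REPTOR* was not tested beyond leaving that library out.

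Smaller rises were called for *Lst8*, a subunit of both TOR complexes, from 74.4 ± 3.28 to 119 ± 4.94 CPM (log2 change 0.68), and for *REPTOR-BP*, the binding partner of REPTOR, from 17.9 ± 0.961 to 26.6 ± 2.28 CPM (0.57). *Lst8* shares 127 exon bases with *Gga* on the other strand. *S6k*, the ribosomal protein S6 kinase, went from 155 ± 2.05 to 223 ± 4.73 CPM (log2 change 0.52). The genes that fell were *chrb*, from 214 ± 20.0 to 140 ± 5.71 CPM (-0.61), and *scyl*, from 579 ± 10.4 to 406 ± 12.9 CPM (-0.51), which both encode inhibitors of TOR of the REDD1 family, and *path*, an amino acid transporter, from 275 ± 43.4 to 186 ± 21.0 CPM (-0.56). Among these, *S6k*, *REPTOR-BP*, *chrb*, *scyl* and *path* were not called by glmTreat against 0.5. *scyl* was also not called with upper-quartile scaling (-0.48), with library sizes alone (-0.49) or without knockdown replicate 2 or 3 (-0.49 each), *path* without control replicate 3 (-0.43) or knockdown replicate 2 (-0.45), and *S6k* with no filter on low counts (0.50). *Tor* itself had a log2 fold change of -0.32 and was not called.

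**Figure D3:**
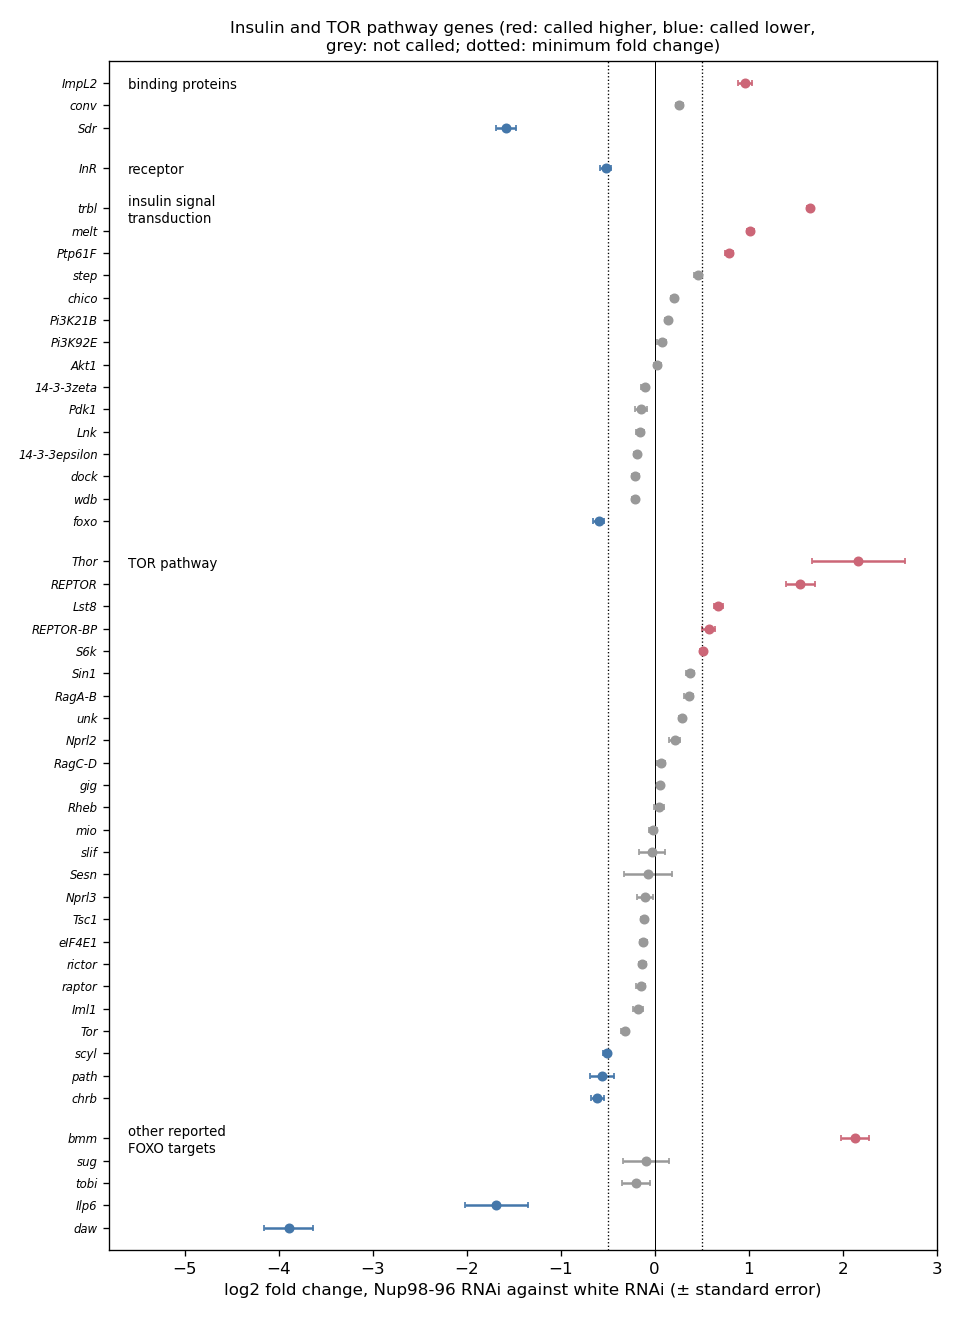
Log2 fold change (knockdown minus control) of tested genes grouped by role, each gene once, with bars for ± 1 standard error of the edgeR fit, a solid line at 0 and dotted lines at the minimum of 0.5 in each direction; red is called higher, blue called lower and grey not called. Most genes of signal transduction and of the TOR pathway lie within the lines, with medians of -0.04 and -0.02. In these groups *trbl*, *melt*, *Ptp61F*, *Thor*, *REPTOR*, *Lst8*, *REPTOR-BP* and *S6k* lie above the lines, and *foxo*, *chrb*, *path* and *scyl* below.

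Over all lists, with the ecdysone-inducible genes and the reported *Ilp8* regulators described below included, 58 genes other than the 6 were tested. Of these, 12 were higher, 8 lower and 38 not called, with a median log2 fold change of -0.02. The 8 lower genes included the ecdysone-inducible *ImpE1*, *ImpE2*, *ImpE3* and *ImpL1*. Of 12 genes reported as targets of Foxo in fly tissues, 10 were tested, and 3 were higher, 3 lower and 4 not called, with a median of -0.08. Beside these counts, 26.6% of all genes tested were called. The 3 higher genes were *Thor*, *ImpL2* and *bmm*, the triglyceride lipase brummer. *bmm* was at 5.89, 6.56 and 8.53 CPM in control and at 34.7, 28.5 and 29.0 CPM in knockdown libraries (log2 change 2.13 ± 0.15 SE, adjusted p = 3.16e-05). The 3 lower genes were *InR*, *Ilp6* and *daw*, an Activin-like ligand. *daw* was at 13.3, 15.4 and 21.0 CPM in control and at 0.989, 0.880 and 1.48 CPM in knockdown libraries (log2 change -3.89 ± 0.26 SE, adjusted p = 2.48e-05). *Lip4* and *l(2)efl* did not pass the filter. With no filter *Lip4* was called lower (-1.85) and *l(2)efl* higher (1.00), beside 21.1% called of 15021 genes. *l(2)efl* shares 75 exon bases with *St3* on the other strand. The reported targets therefore did not move in one direction.

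*ImpL2* was first known as an ecdysone-inducible gene, and the other genes of that name were read beside it. All 6 were tested, and 2 were higher and 4 lower, while 15.3% and 11.2% of all genes tested were. *ImpL3*, which encodes lactate dehydrogenase, was at 19.3, 25.1 and 33.6 CPM in control and at 105, 91.1 and 98.7 CPM in knockdown libraries (log2 change 1.91). *ImpE2* was at 3869, 5603 and 6827 CPM in control and at 13.0, 10.7 and 5.79 CPM in knockdown libraries (log2 change -9.11 ± 0.43 SE, adjusted p = 5.38e-06). *ImpE1* (-3.05), *ImpE3* (-5.53) and *ImpL1* (-2.13) were lower as well. *ImpL1*, at 2.22, 4.34 and 14.8 CPM in control and 1.58, 1.50 and 1.79 CPM in knockdown libraries, was not called by voom or glmTreat, or without any 1 of the knockdown libraries. Without control replicate 3 its log2 change was -1.01, a fold change of 2.02 in place of 4.39. Control replicate 3 was the highest control library for all 6 of these genes, *ImpL2* included. *ImpL2* thus differed in direction from *ImpE1*, *ImpE2*, *ImpE3* and *ImpL1*. Per the methods, embryos were collected in a timed window to align staging, and larvae were dissected at the wandering stage. A difference in stage and an effect of the RNAi cannot be told apart here.

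**Figure D4:**
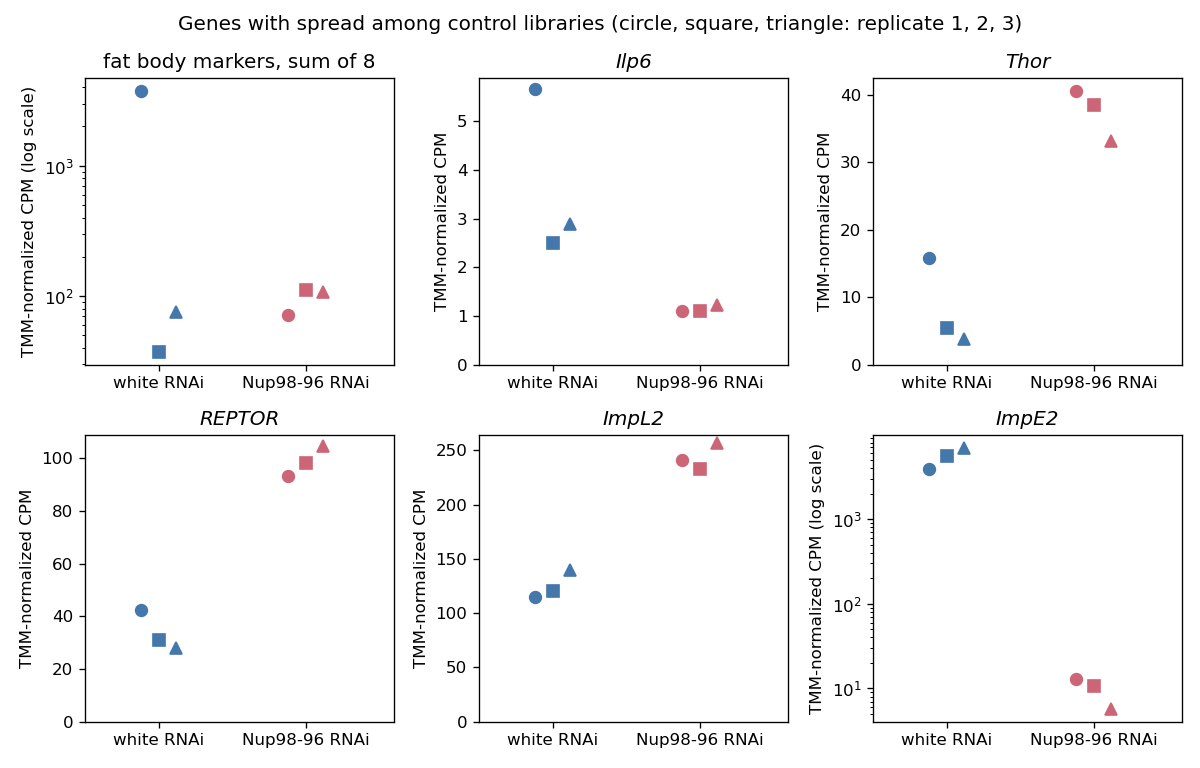
CPM in each library, with circles, squares and triangles for replicates 1, 2 and 3, of the summed 8 fat body markers, *Ilp6*, *Thor*, *REPTOR*, *ImpL2* and *ImpE2*; the axes of the fat body sum and of *ImpE2* are logarithmic. Control replicate 1 is at 3716 CPM for fat body markers and is the highest control library for *Ilp6*, *Thor* and *REPTOR*, but the lowest for *ImpL2* and *ImpE2*.

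Of 8 genes reported to regulate *Ilp8* transcription, 2 were higher and 6 not called, beside 26.6% called over all genes tested. *kay*, the fly Fos subunit of AP-1, which acts below the kinase JNK, was at 168, 177 and 219 CPM in control and at 330, 306 and 342 CPM in knockdown libraries (log2 change 0.79). *Xrp1*, a stress-responsive transcription factor known from cell competition, was at 620, 640 and 683 CPM in control and at 1288, 1293 and 1271 CPM in knockdown libraries (log2 change 0.99 ± 0.04 SE, adjusted p = 2.73e-06). *Jra*, the Jun subunit of AP-1, which shares 39 exon bases with *RpLP0-like* on the other strand, had a log2 change of 0.47 and was not called, but was called higher with upper-quartile scaling (0.51) and without control replicate 3 (0.55). *yki* (-0.14) and *sd* (-0.01), the coactivator and the DNA-binding partner at the end of the Hippo pathway, were not called either, nor were *bsk*, *hop* and *Stat92E*.

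Genes with profiles most like those of the 2 members that rose were found by the same distance over the 6 libraries and 7942 genes. Nearest to *Ilp8* were *Arc1* (distance 0.569), *CR10102* (0.653), *CG8620* (0.993), *Ir40a* (1.05) and *AOX1* (1.23), against a median of 5.60 over all genes. *Arc1*, whose protein forms capsid-like particles, went from 16.0 ± 0.455 to 2767 ± 185 CPM, and *CR10102* from 2.28 ± 0.185 to 415 ± 31.8 CPM. Nearest to *ImpL2* were *f* (0.0369), *kek2* (0.0613), *ATP8B* (0.0667), *Xrp1* (0.0669) and *Mdr49* (0.0672), against a median of 0.708. *Xrp1* is thus both a listed regulator of *Ilp8* and one of the 5 genes nearest to *ImpL2*. These genes were chosen by their values, which are given as a description.

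Markers of other cell types were read in the same libraries. Of the markers of insulin-producing cells and neurons, *Ilp2*, *Ilp3* and *Ilp5* were at 0 to 2 counts, and *elav*, which shares 673 exon bases with *arg* on the other strand, was higher (log2 change 0.61). The other 2 did not pass the filter, and with no filter *nSyb* was called higher (0.736, 0.660 and 0.905 CPM in control and 1.68, 1.62 and 1.65 CPM in knockdown libraries) and *brp* lower (0.231, 0.371 and 0.377 CPM against 0.127, 0.0890 and 0.149 CPM). Of 4 myoblast markers, 3 were lower (summed level 201 to 228 CPM in control and 136 to 141 CPM in knockdown libraries), and both tracheal markers that were matched were lower. Hemocyte markers summed to 24.0 to 33.2 CPM in control and 17.0 to 33.2 CPM in knockdown libraries. The highest of them, *Hml*, was at 12.3 ± 2.10 and 15.7 ± 5.32 CPM and was not called. Of the 4 tested genes 2 were lower, *srp* (log2 change -2.27) and *eater* (-1.24). With no filter *NimC1* (-1.88), *He* (-1.74) and *Pxn* (-0.59) were called lower as well. None of 5 salivary gland markers was called. Beside these marker counts, 15.3% of all genes tested were called higher and 11.2% lower, and with no filter 13.0% and 8.12%. The part of these cells in the levels of the 6 genes was not tested.

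**Figure D5:**
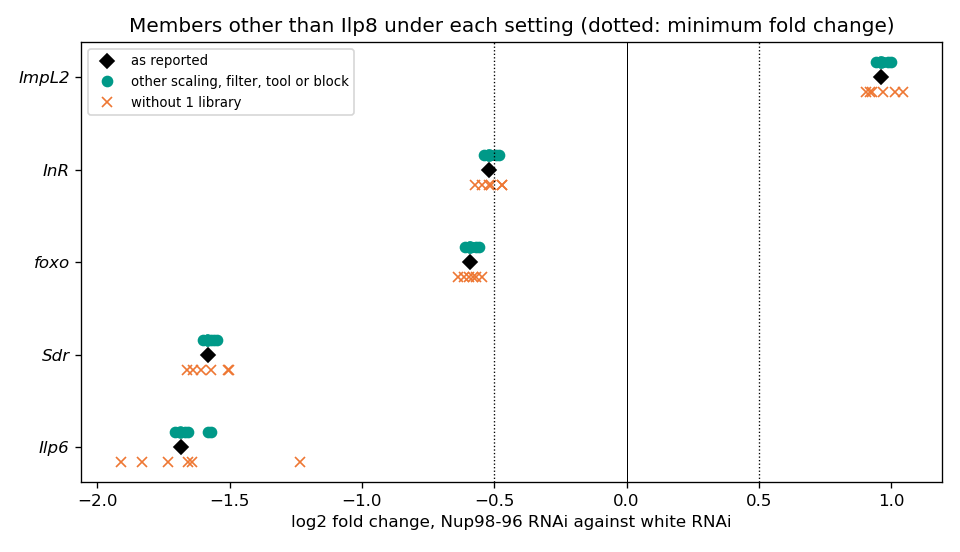
Log2 fold change (knockdown minus control) of *ImpL2*, *foxo*, *InR*, *Sdr* and *Ilp6* with TMM scaling and the Jaccard filter and under each of 16 alternatives. *InR* is the gene that crosses the minimum of 0.5, between -0.57 and -0.47, and *Ilp6* moves most, between -1.91 and -1.23.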

How the data were processed

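Wing disc RNA of 3 control and 3 knockdown libraries was measured by polyA RNA-seq. Per the methods, reads were aligned by Rsubread to BDGP6. The deposited file holds the authors' featureCounts counts for 17559 genes, unstranded and unscaled. The submitters' notes name edgeR 3.13.4, limma and FastQC. A deposited table of the authors' comparison holds their log2 fold changes, average expression, p-values and limma scores, of which none was used. Only its gene names and positions (columns of another kind, also deposited) were taken, for 120 identifiers that the Ensembl release 115 annotation of BDGP6 lacks. Of 112 listed symbols 109 were matched. *susi*, *PRAS40* and *tal* were not. Exon lengths come from that annotation.

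Low counts were filtered by the Jaccard index of HTSFilter, the study's tool, written anew (loess span 0.3, 100 thresholds between 1 and 200). Its maximum fell at the upper end, 200 normalized counts (2.15 CPM). A gene had to exceed this in at least 1 library, and 7942 genes were kept. Counts were fitted with edgeR 4.0.16 (glmQLFit, glmQLFTest) in R 4.3.3, with TMM scaling, group as the only term and Benjamini-Hochberg adjustment over all genes kept. A standard error is the log2 fold change divided by the root of F. The study used voom and limma at the same thresholds, run here with limma 3.58.1 as an alternative, beside DESeq2 1.42.0, other scalings and filters, no minimum fold change, glmTreat, a replicate block and leaving out each library. The fit was tested on simulated data. Replicate pairs had a chi-square of 16.0 to 166 per degree of freedom, above counting noise, so all 6 libraries were kept as separate.

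The members and lists were chosen with earlier results of these data known. Named are the 6 genes, all listed ligands, binding proteins and receptors, in each other list the called genes up to 4 in each direction, genes overlapping a member, the 5 nearest profiles to *Ilp8* and *ImpL2*, and markers where they move with a result. Uncalled genes such as *Akt1* and *Jra* were added after their values were seen. *S6k*, called higher in the TOR pathway beyond the 4 highest, was also named. No sequence is shown. In the list of insulin signal transduction, 1 gene is included in the counts and not reported here by itself.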

Additional observations from a re-analysis of the deposited data

How the results depend on the processing

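*Ilp8*, *Ilp6*, *ImpL2* and *Sdr* kept their direction and call under all 16 alternatives, with log2 fold changes of 7.72 to 8.58, -1.91 to -1.23, 0.90 to 1.04 and -1.66 to -1.50. The wider search for the filter threshold, under which *Ilp6* would not be tested, was not among them. *foxo* (-0.64 to -0.55) was lost by glmTreat alone (-0.59, adjusted p = 0.119), and *InR* was lost with upper-quartile scaling (-0.48), with library sizes alone (-0.49), by glmTreat (-0.52, adjusted p = 0.639) and without control replicate 3 or knockdown replicate 2 (leave-one-out range -0.57 to -0.47). The 2 members called higher stayed at 2 throughout, and the 4 called lower became 2 with glmTreat and 3 to 4 when libraries were left out. The largest shift of the median by scaling was to 0.0364, with upper-quartile scaling. Of all genes, 1219 were higher and 890 lower. With filterByExpr 1873 were higher and with no filter 1950, in fits of more genes (10780 and 15021). With no minimum fold change 2641 were higher and 2585 lower. Leave-one-out ranges were 1154 to 1290 higher and 814 to 940 lower. DESeq2 called 1229 and 912, and voom 1242 and 875. Over all lists except those of markers, with the 6 genes included, 14 genes were higher and 12 lower. With no minimum fold change these were 24 and 27, with glmTreat 6 were lower, and when libraries were left out 14 to 15 were higher and 8 to 12 lower.

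The labels number the replicates alike in both groups, but same-numbered libraries did not deviate together (correlations -0.17, 0.0053 and -0.026). With the replicate number as a block 2076 genes were called in place of 2109, and all 6 members were still called. The other insulin-like peptides were at 0 to 2 counts per library, too few for a change between the groups to be read.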
